A study of Mus musculus with 6 samples.

Results

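The constant regions inside gene bodies are stretches of the mouse genome where peaks of estrogen receptor alpha (ERα, encoded by Esr1) were listed in every library of the study, inside a protein-coding gene and away from its ends. Overlapping or touching peaks of the 6 deposited lists were merged into 39374 regions, and 2863 of these had a peak in all 6 lists. Of those 2863, a total of 456 overlapped a RefSeq protein-coding gene span and lay more than 1 kb from either end of every such gene, and these are the members described here. The other constant regions lay within 1 kb of a gene end (2061) or outside genes (346). The members were thus chosen by their presence in all 6 peak lists, a measured value, and by their position, so neither is a finding, and a region cannot be a member through a difference in presence between treatments.

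ERα occupancy had been profiled by CUT&RUN, an assay in which nuclease is brought to the protein by an antibody, and the DNA it cuts free from the nuclei is sequenced. The tissue was limbic brain of adult male C57/BL6 mice (the strain is given for replicates 1 and 2 only), all gonadectomized at 10 to 12 weeks of age, so both groups lacked testicular hormone. After 3 weeks the vehicle group received corn oil under the skin and the estradiol group 5 µg of estradiol benzoate, and nuclei were taken 4 hours later. Each group had 3 libraries, and the labels do not tell separate animals from pooled ones, so the spread between libraries may be technical. List length varied: 5421, 13717 and 20541 peaks for vehicle replicates 1 to 3, and 11082, 14123 and 17558 for estradiol.

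As background, ERα is a nuclear receptor that binds DNA as a dimer, classically at an inverted repeat of GGTCA called the estrogen response element, and that can also be recruited through other DNA-bound factors. Many long genes hold promoters of shorter transcripts, of antisense RNAs or of other noncoding RNAs inside their span, so a site inside a gene body can still be the start of a transcript. NF-Y is a ubiquitous trimeric factor that binds the CCAAT box, a common promoter element found in either orientation upstream of start sites.

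The members with the highest peaks are best seen with their sequence, because most of them lay at an annotated start inside the host gene. Whether a transcript begins there in this tissue was not measured. Stretches of 250 bases that end at the base before an annotated start site are shown, from RefSeq on build GRCm38.p6, written in the direction of transcription. They were chosen for the highest member (Zmynd8), for a noncoding start inside a host (Kcnq1ot1 in Kcnq1), for the window with many CCAAT boxes (Arntl), for a start close to a gene end (Ibtk) and for a nuclear receptor corepressor (Sin3a). Capitals mark CCAAT or its reverse complement ATTGG, except in Zmynd8, where they mark GGTCA. The Zmynd8 stretch is chr2:165884839-165885088 on the minus strand, that of Kcnq1ot1 chr7:143296548-143296797 on the minus strand, that of Arntl chr7:113207215-113207464 on the plus strand, that of Ibtk chr9:85749335-85749584 on the minus strand and that of Sin3a chr9:57076126-57076375 on the plus strand.
Zmynd8: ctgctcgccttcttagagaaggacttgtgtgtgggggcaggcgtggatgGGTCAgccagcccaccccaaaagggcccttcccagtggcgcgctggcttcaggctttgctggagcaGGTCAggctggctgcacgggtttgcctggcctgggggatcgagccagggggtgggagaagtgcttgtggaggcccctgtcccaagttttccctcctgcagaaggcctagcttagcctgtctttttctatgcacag
Kcnq1ot1: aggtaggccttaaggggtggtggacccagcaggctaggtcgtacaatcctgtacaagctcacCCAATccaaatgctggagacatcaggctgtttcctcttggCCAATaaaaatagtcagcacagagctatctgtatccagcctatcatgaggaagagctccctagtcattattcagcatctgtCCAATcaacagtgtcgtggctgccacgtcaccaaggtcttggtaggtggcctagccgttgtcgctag
Arntl: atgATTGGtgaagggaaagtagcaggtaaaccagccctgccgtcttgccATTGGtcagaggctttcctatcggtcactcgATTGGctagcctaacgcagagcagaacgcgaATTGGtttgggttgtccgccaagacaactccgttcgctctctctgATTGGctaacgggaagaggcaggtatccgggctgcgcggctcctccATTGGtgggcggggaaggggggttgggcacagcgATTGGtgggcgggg
Ibtk: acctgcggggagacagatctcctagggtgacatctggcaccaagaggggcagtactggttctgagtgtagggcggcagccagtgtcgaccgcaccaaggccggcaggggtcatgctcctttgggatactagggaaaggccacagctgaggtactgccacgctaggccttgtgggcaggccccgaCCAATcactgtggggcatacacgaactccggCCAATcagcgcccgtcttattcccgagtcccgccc
Sin3a: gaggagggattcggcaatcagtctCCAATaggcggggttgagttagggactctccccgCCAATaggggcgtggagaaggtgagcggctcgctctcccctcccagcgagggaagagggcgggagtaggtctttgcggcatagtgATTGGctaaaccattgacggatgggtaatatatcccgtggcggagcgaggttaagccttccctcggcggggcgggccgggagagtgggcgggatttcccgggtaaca
The Zmynd8 region covered the window from 9 bases upstream of the start onward, so both GGTCA elements, which begin 201 and 135 bases upstream, lay outside it. In Kcnq1ot1 the region covered all 3 CCAAT boxes, which begin 188, 148 and 67 bases upstream. The Arntl stretch holds 7 boxes, all inside the region.

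Zmynd8, a reader of modified histone tails, held the highest member in every library (chr2:165884671-165884847, 14134 bp from the nearest end of the gene). Its fold enrichment at the summit, the authors' value over the peak caller's background, was 29.0, 40.4 and 52.3 in vehicle libraries 1 to 3 and 33.7, 41.1 and 51.3 in estradiol libraries 1 to 3. The folds of the groups overlapped, and the 6 summits lay within 12 bp of each other. Folds of lists with unequal depth are not comparable, so overlap of folds, here and below, does not compare the treatments, which is done by rank further on. Behind these summits stood 57, 102 and 201 fragments in the vehicle and 74, 97 and 190 in the estradiol libraries, against a median over the members of 8, 12 and 17 and of 10, 11 and 13. The fragment numbers were recovered from the deposited fold and p-value, and they show that a typical member rested on few fragments while the first few members were deep.

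The second was inside Kcnq1, a potassium channel gene of an imprinted cluster, and covered the start of Kcnq1ot1, the antisense noncoding RNA of that cluster (chr7:143296543-143296789). Its fold was 20.9, 32.9 and 37.6 in the vehicle and 22.6, 29.8 and 42.3 in the estradiol libraries. Gramd1b encodes a cholesterol transfer protein, and its member (chr9:40346161-40346539) lay at no annotated start, with folds of 19.7, 20.6 and 22.5 in the vehicle and 19.6, 20.6 and 26.4 in the estradiol libraries.

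Arntl, which encodes the core clock activator BMAL1, held a member over an internal start of the gene (chr7:113207123-113207522), 28652 bp from the gene end, with folds of 19.3, 29.5 and 32.8 in the vehicle and 28.0, 24.0 and 34.1 in the estradiol libraries. The Ibtk member (chr9:85749320-85749464) had folds of 19.0, 27.6 and 37.1 against 26.1, 25.5 and 39.1, and Ibtk encodes an inhibitor of Bruton's tyrosine kinase. Mbnl1, a regulator of alternative splicing, held a member at no annotated start (chr3:60528344-60528482) with folds of 16.7, 26.3 and 38.1 against 18.0, 25.6 and 40.5. In each of these 3 the vehicle and estradiol folds overlapped.

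The 10 highest members, ranked by the lowest of their 6 folds, also included Map3k13, Brwd1 and Tob1, with lowest folds of 16.2, 15.4 and 15.1. Map3k13 encodes a MAP kinase kinase kinase and its member covered the start of the noncoding gene Gm26744. Brwd1 encodes a bromodomain protein and Tob1 an antiproliferative factor. Of the 10, a total of 4 lay at a start of the host gene itself, 3 at the start of a noncoding gene alone and 3 at no annotated start. At the other end of the order stood Cpa4, a carboxypeptidase gene, and Usp29, a deubiquitinase gene, each with a lowest fold of 4.08. The Usp29 values were 4.26, 8.50 and 9.51 in the vehicle and 5.25, 6.44 and 4.08 in the estradiol libraries, so the same region ranged from near the lowest called height to near the members' median.

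**Figure D1:**
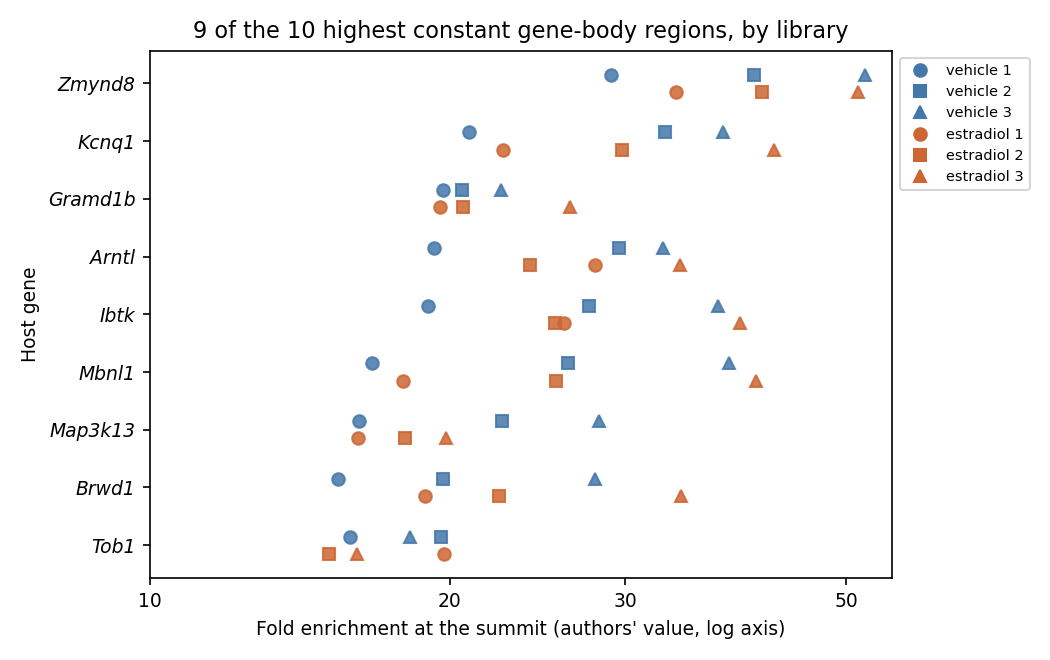
Fold enrichment at the summit (authors' value, logarithmic axis) of 9 of the 10 highest members, named by host gene, with 1 point per library: blue for the 3 vehicle and orange for the 3 estradiol libraries. Zmynd8 is to the right of the others in every library, from 29.0 to 52.3, and vehicle library 1, the shortest list, is at or near the left of most rows.

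Most members lay in the early part of their host and many at an annotated internal start. Of 364 members whose host strand was known, 137 lay in the first 20% of the gene from its 5′ end, then 84, 52, 48 and 43 in each further 20%. The median position was 29.5% of the gene, 144 members lay within 5 kb of the 5′ end and 41 within 5 kb of the 3′ end. The median distance to the nearest protein-coding gene end was 6434 bp, 108 members lay at most 2000 bp away, and 60 lay over 50000 bp away. The farthest was the member in Gabrg3, a subunit gene of the GABA-A receptor, at 334921 bp. Exon and intron structure was not used here.

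A start window, taken as the stretch from 250 bases before to 50 bases after a RefSeq start site, was overlapped by 173 of the 444 members on chromosomes with such windows, or 39.0% (exact 95% interval 34.4% to 43.7%). Gene-body regions found in 1 library only did so in 3.15% of 9446 cases (2.81% to 3.53%). Between these, the share was 5.32% in 2, 8.63% in 3, 13% in 4 and 22.2% in 5 libraries. Merged regions were also wider with more libraries, with a median of 42 bp in 1 library and 201 bp in 6, and the part of width in these shares was not tested. The median distance to the nearest start was 1836.5 bp for the members and 31622.5 bp for regions of 1 library. Among regions whose hosts all had a start window, the share was 46.3% of 365 members and 3.70% of 7643 regions of 1 library. Constant regions at gene ends overlapped a start window in 79.3% and those outside genes in 9.71%. Vehicle library 1 decided much of the membership: without it 817 regions qualified, and 30.9% of them lay at a start window.

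Of the 173 members at a start, 148 lay at a start of the host alone, 14 at a start of the host and of another gene, and 11 at a start of another gene alone. The latter 11 starts belonged to long noncoding RNAs. Where a gene other than the host began there, it ran opposite to the host in 23 of 25 members, and in the remaining 2 the strand was not given. Por, the P450 oxidoreductase gene, and Sin3a were examples where the member overlapped start windows of both the host and a noncoding gene, with lowest folds of 8.01 and 12.2. A noncoding gene end lay within 1 kb of 49 members, and 45 of these genes were long noncoding RNAs.

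**Figure D2:**
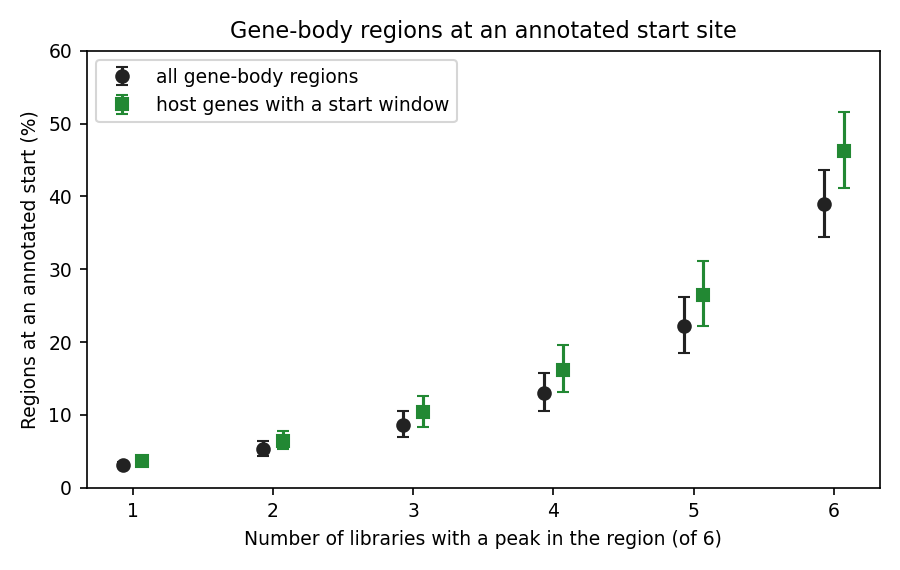
Share of gene-body regions that overlap an annotated start window (percent, vertical axis) by the number of libraries with a peak (horizontal axis), for all gene-body regions (black circles) and for those whose hosts all have a start window (green squares); bars are exact 95% intervals and cover counting error only. The share for all regions goes from 3.15% in 1 library to 39.0% in 6.

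The summits of these 173 members were measured from the nearest start. The median summit lay 85, 77 and 70 bp upstream in vehicle libraries 1 to 3 and 73, 76 and 80 bp upstream in estradiol libraries 1 to 3. Between 84.4% and 88.4% of summits were upstream, and between 57.8% and 63.0% were within 100 bp of the start, depending on the library. These members were selected by overlap with a window that has 250 of its 300 bases upstream and reaches no farther from the start. This selection itself favours upstream and near summits, so both shares are descriptions. The medians of the 6 libraries lay within 15 bp of each other. Over all members, the 6 summits of a region spanned a median of 58 bp, beside 68 bp in constant regions of gene ends and 55.5 bp in those outside genes.

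**Figure D3:**
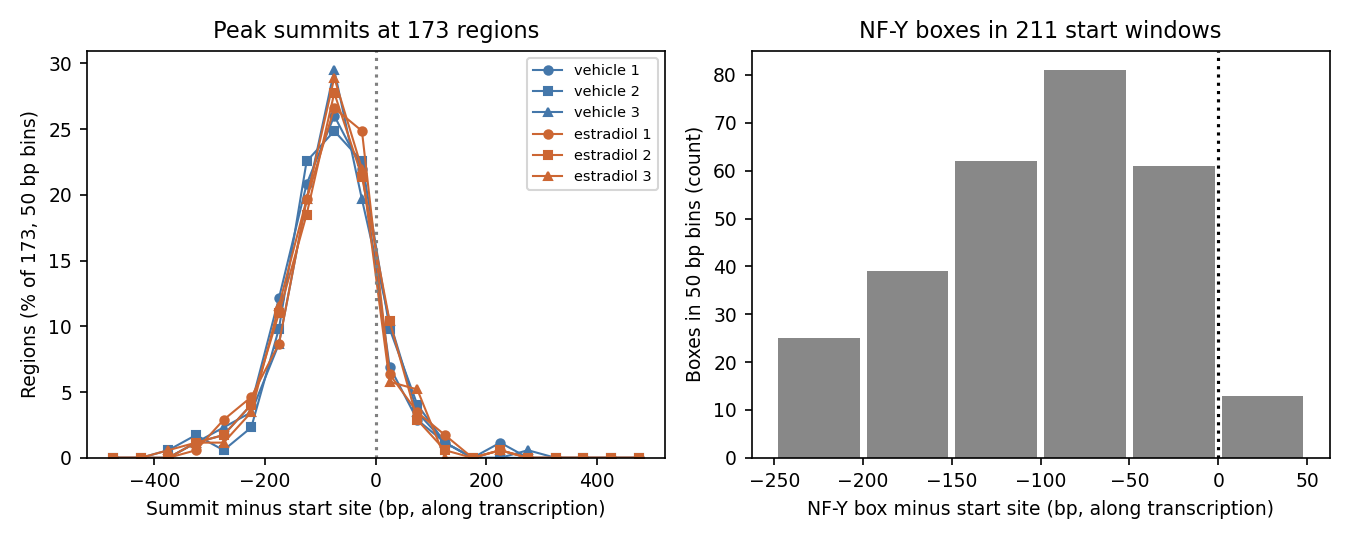
Left, share of the 173 members at a start window whose summit falls in each 50 bp bin along the direction of transcription (start site at 0), with 1 line per library; right, number of NF-Y boxes (vertical axis) in 50 bp bins over the 211 start windows these members overlap. Both peak between 100 and 50 bp upstream of the start, where 81 of the 281 boxes lie. Start windows can overlap, so a box can be counted more than once, and box positions in other windows were not compared.

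The members were slightly lower and narrower than constant regions at gene ends, and slightly wider than those outside genes. The median fold of the members was 6.55, 9.16 and 10.9 in the vehicle and 8.14, 8.93 and 9.55 in the estradiol libraries, and that of gene-end regions was 6.97, 9.71 and 11.8 and 8.86, 10.2 and 9.81. On the log2 scale the members' median was below that of gene ends by a mean of 0.11, as a difference of -0.11 ± 0.05 (SD, n = 6 libraries, a ratio of 0.929), in 6 of 6 libraries. Their peaks were narrower by a difference of -24.8 ± 5.31 bp (SD, n = 6). A two-sided exact sign-flip permutation test over the 6 libraries gave p = 0.03125 for each, the smallest it allows. It stayed 0.03125 after Benjamini-Hochberg adjustment over 4 comparisons. The same regions stand behind all 6 medians, so this p and those below cover the spread between libraries and not that between regions. Against constant regions outside genes the members were higher by 0.06 ± 0.04 on the log2 scale and wider by 18.3 ± 6.77 bp (SD, n = 6 libraries), with the same exact p. The height difference from regions outside genes turned to -0.014 when the peaks of each library had to cover 50% of a region, and to -0.022 in lists cut to the length of the shortest (called lists of equal length), with adjusted exact p of 0.53125 and 0.59375. The difference from gene ends was -0.04 in lists of equal length, with an adjusted exact p of 0.208, and the calls of both widths were lost there too (adjusted exact p = 0.0625 each).

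Members at a start window stood above the other members. Their median fold was 6.91, 9.77 and 11.7 in the vehicle and 8.45, 10.0 and 10.4 in the estradiol libraries, and for the 271 members at no start window it was 6.34, 8.94 and 10.5 in the vehicle and 7.75, 8.22 and 8.88 in the estradiol libraries. The log2 difference was 0.18 ± 0.07 and the width difference 39.5 ± 7.94 bp (SD, n = 6), each above 0 in 6 of 6 libraries. The exact sign-flip permutation p was 0.03125 for each, in a family of 2 comparisons added after the data had been seen. A wider region overlaps a window more easily, so the grouping itself favours a width difference. The part of this grouping in the height difference was not tested. With 50% cover the height difference was 0.06 (adjusted exact p = 0.09375), and in lists of equal length it was 0.03 (adjusted exact p = 0.156).

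The start windows at members held CCAAT boxes and CpG-rich sequence, and no estrogen response element. The members overlapped 211 distinct windows, which were compared with 2118 windows at constant gene-end regions, 24787 windows with no peak in any library and all 32815 windows. The full element, GGTCA and its reverse complement with 3 bases between them, was found in 0 of the 211 windows, which allows a share of up to 1.42%, and in 0 of the 2118, beside 23 (0.0701%) of all windows. A single GGTCA was found, on either strand, in 45.5% of the member windows and 40.5% of all windows. Both counts of 0 allow more than the 0.0701% of all windows (1.42% and 0.142%), so they cannot be told from that background. These letters were searched in start windows only, so the 271 members at no start were not searched. Of a member at a start, only the part inside a window was read, which for Zmynd8 was 59 of 177 bp.

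Other elements differed more between the sets. CCAAT, in either orientation, was in 57.3% of the member windows (exact 95% interval 50.4% to 64.1%), 65.8% of gene-end windows and 34.4% of windows with no peak. At least 2 boxes were in 43.1% (36.3% to 50.1%) of the member windows, 42.9% of gene-end windows, 8.49% of windows with no peak and 11.7% of all windows. Elements were counted over the whole window, also where a member covered only part of it, so a counted box can lie outside the member. Windows at gene-body regions of 1 library held at least 2 boxes in 7.14% of 294 cases. The CpG ratio, observed over expected, was at least 0.6 in 80.6% of member windows, 90.4% of gene-end windows, 21.0% of windows with no peak and 35.8% of all windows. Among windows with no peak, the share with at least 2 boxes was 4.12% at such a CpG ratio and 9.65% under 0.6. Among member windows it was 40% at such a ratio and 56.1% under 0.6. The part of base composition in these shares was not tested. With 1 window per gene the shares with at least 2 boxes were 43.7% for members and 8.69% for no peak. The CCAAT search was added after the data had been seen, as were the E-box, CRE and ZNF143 searches below.

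The share with boxes was also read by the height of the members, and it was not in order of height. The 70 windows of the highest members held at least 2 CCAAT boxes in 61.4% (exact 95% interval 49% to 72.8%), the middle 69 in 31.9% (21.2% to 44.2%) and the lowest 72 in 36.1% (25.1% to 48.3%) of cases. The Arntl window from base -250 to base 49 held 8 boxes, each in the ATTGG orientation, and Ibtk had 2 boxes that begin 66 and 35 bases upstream. In Elavl2, which encodes a neuronal RNA-binding protein, 2 boxes lay in the covered stretch, and its folds were 7.0, 17.6 and 23.1 in the vehicle and 9.66, 15.8 and 22.8 in the estradiol libraries.

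The GC-rich Sp/Klf box GGGCGG was in 64.5% of member windows, 74.1% of gene-end windows and 25.3% of windows with no peak. The Ets element CCGGAAGT was in 10.9%, 9.58% and 1.65% of the same sets. The palindromic NRF1 consensus was in 1.90%, 2.79% and 0.339%. The ZNF143 consensus was in 2.84%, 4.20% and 0.258%, the E-box CACGTG in 9.0%, 11.9% and 5.74%, and the cAMP response element TGACGTCA in 1.90%, 4.96% and 0.944%. The AP-1 element TGANTCA went the other way, in 3.32%, 3.40% and 9.15%. A CTCF core consensus was in 3.79%, 3.12% and 2.11%. All were searched on both strands, and a match describes the sequence and is not a measured binding site of the factor.

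**Figure D4:**
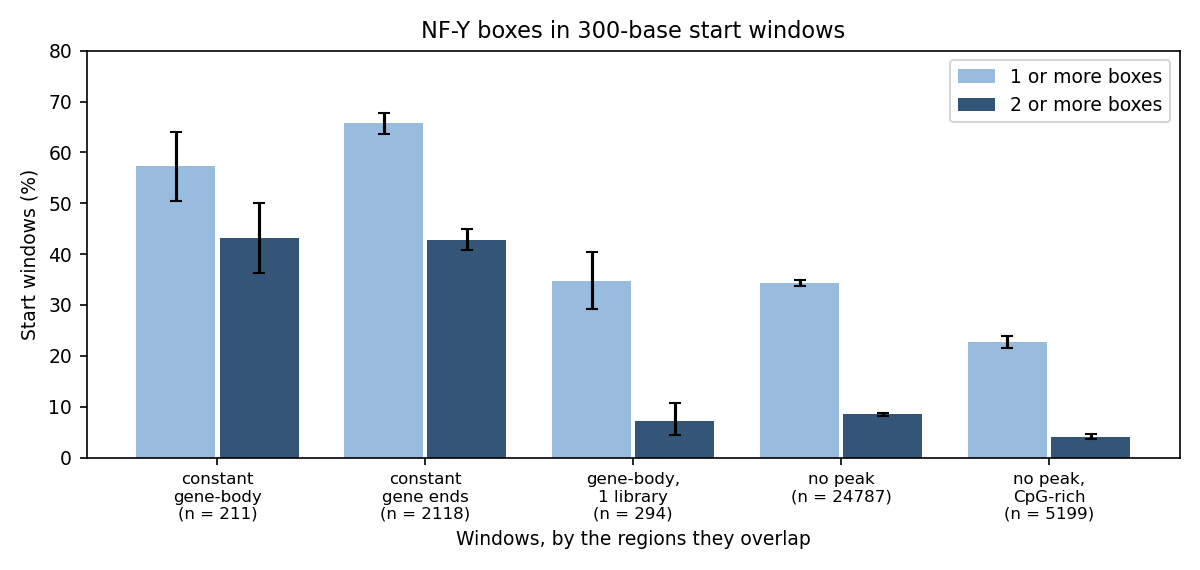
Share of 300-base start windows (percent, vertical axis) that hold at least 1 (light bars) or at least 2 (dark bars) NF-Y boxes, for windows at constant gene-body regions, at constant gene-end regions, at gene-body regions of 1 library, with no peak, and with no peak and a CpG ratio of at least 0.6; error bars are exact 95% intervals for counting error. At least 2 boxes occur in 43.1% of the windows at members and 8.49% of windows with no peak.

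The 456 members lay in 440 host genes, 2.28% of the 19304 protein-coding genes longer than 2 kb, and 23 of these hosts held more than 1. Hosts were long: their median length was 51636 bp, beside 21337 bp over all such genes. The share with a member went from 0.622% among the 4826 shortest genes to 4.60% among the 4826 longest. Longer genes hold more sequence over 1 kb from their ends, so the rule itself favours long hosts, and their length is a description. Dpf1, which encodes a neuronal subunit of the BAF chromatin remodeling complex, and Pde1c, a calmodulin-dependent phosphodiesterase gene, held 3 each. The 3 Dpf1 members lay between 29307798 and 29315421 on chromosome 7, and the middle one had folds of 8.07, 9.36 and 9.16 in the vehicle and 7.43, 12.9 and 13.7 in the estradiol libraries. Hosts with 2 members included Slc12a5 (the neuronal chloride extruder KCC2), Kdm6b (a histone H3K27 demethylase), Nfia, Ntrk2 (the BDNF receptor), Dlg4 (PSD-95), Opcml and Ncor1. Members that share a host were alike in height in some hosts and unlike in others. In 4932438H23Rik the lowest folds were 12.0 and 11.2. The 2 Slc12a5 members had lowest folds of 11.8 and 6.12. In Dcaf11, a ubiquitin ligase adaptor gene, the member at a start window (chr14:55560659-55560969) had folds of 10.4, 21.8 and 29.2 in the vehicle and 13.4, 17.6 and 28.7 in the estradiol libraries. Its neighbour at no start window (chr14:55560355-55560545) had 4.93, 7.40 and 5.74 against 6.41, 4.53 and 4.77. In Dcaf11 the member at a start window was thus the higher of the 2 in every library. In Nfia, a nuclear factor I gene of neural and glial development, the second member (chr4:97773270-97773467) had 9.27, 13.2 and 15.8 against 9.63, 13.6 and 15.2.

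Gene lists were read against the 2.28% of all genes, with no test, and they differed in gene length: the median ran from 11152 bp in the melanocortin list to 791305 bp in the adhesion and scaffold list, beside 21337 bp over all genes. The part of length in their shares was not tested. Of 32 chromatin readers, writers and erasers, 6 held a member (Zmynd8, Kdm2a, Kdm6b, Chd2, Chd7 and Dnmt3a). The higher of the 2 Kdm6b members had folds of 9.43, 17.8 and 26.7 against 13.1, 14.1 and 30.1, and the Dnmt3a member, in the gene of a de novo DNA methyltransferase, 5.31, 6.04 and 8.06 against 7.75, 6.46 and 5.39. Of 24 nuclear receptor coregulators, 3 held a member, among them the corepressor gene Ncor1 and Sin3a, a scaffold of histone deacetylase complexes. Sin3a had folds of 13.6, 13.4 and 17.4 in the vehicle and 12.2, 14.3 and 22.9 in the estradiol libraries, while the first Ncor1 member had 5.79, 5.29 and 9.72 against 4.85, 6.76 and 11.3. In both genes the groups overlapped.

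Of 32 neuronal and developmental transcription factors, 5 held a member (Nfia, Nfix, Zbtb16, Zbtb20 and Zbtb7a), and of 24 RNA-binding and splicing genes 3 did (Elavl2, Mbnl1 and Srrm2). Of 32 listed voltage-gated channels, 3 calcium channel genes held a member (Cacna1e, Cacna1g and Cacna1h). The channel list did not include Kcnq1, the potassium channel gene that held the second highest member. Of 29 glutamate and GABA receptors, Grik4, Grm7 and Gabrg3 held a member, and of 33 adhesion and scaffold genes Opcml, Dlg4 and Shank2 did. Of 25 genes known for internal promoters, 3 held a member, among them Nrxn3 and Dclk1, neither of them at a start window. The Nrxn3 member, in a presynaptic adhesion gene, had folds of 5.11, 7.03 and 8.08 in the vehicle and 8.91, 5.50 and 10.3 in the estradiol libraries, which overlapped. Mapt was the only host among 28 cytoskeleton and axon guidance genes.

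Of 16 melanocortin and energy balance genes longer than 2 kb, only Ntrk2 held members. The higher one (chr13:59041021-59041161) had folds of 7.74, 16.3 and 23.5 in the vehicle and 11.7, 17.0 and 20.2 in the estradiol libraries, which overlapped. None of 24 genes induced by estrogen in other tissues held a member, which allows a share of up to 12.5%. None of 31 markers of astrocytes, oligodendrocyte lineage, microglia and endothelium did, which allows up to 9.68%. The 0 counts cannot be told from the background of 2.28% at these list sizes.

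Between treatments, the order of the members by height was compared. Heights of lists with unequal depth are not comparable, so the fold of each region was turned into a percentile among the 2863 constant regions of its own library. With 3 libraries against 3, a single region cannot go below an exact p of 0.1, so regions were only described by whether the groups overlap. In 26 members (5.70%) all 3 estradiol ranks lay above all 3 vehicle ranks, beside 4.23% of all constant regions. In 24 members (5.26%) all 3 lay below, beside 3.84%. Both shares are near the background. Across members, the Spearman correlation of fold ran from 0.531 to 0.726 over the 15 pairs of libraries (n = 456 regions that share libraries and depth), and from 0.524 to 0.762 over all constant regions. The highest was between vehicle 3 and estradiol 3, whose peak names and labels differ in style from those of replicates 1 and 2.

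The member with the largest positive difference was in Smn1, which encodes the survival motor neuron protein of snRNP assembly (chr13:100124764-100124885, at a start of the gene). Its ranks were 12.8, 10.3 and 2.99 in the vehicle and 42.2, 84.5 and 62.6 in the estradiol libraries. These rest on few fragments, 5, 6 and 6 against 8, 16 and 13. P4htm, a transmembrane prolyl hydroxylase gene (chr9:108587989-108588213), ranked 8.96, 25.0 and 20.3 against 58.2, 69.8 and 60.7. Cetn3 encodes a centrin, and its member (chr13:81783617-81783843) ranked 9.29, 7.58 and 32.3 against 47.6, 72.8 and 39.5. Caly, the gene of the neuronal vesicle protein calcyon, ranked 23.2, 25.8 and 16.0 against 27.9, 75.6 and 68.3, with estradiol library 1 close to the vehicle values. Prdm10, a zinc finger gene, ranked 11.1, 44.6 and 31.6 against 64.6, 61.4 and 64.4.

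In the other direction, Rsbn1l (chr5:20951803-20951969, at a start of the gene) ranked 84.6, 65.6 and 70.8 in the vehicle and 39.1, 23.5 and 25.8 in the estradiol libraries, on 11, 13 and 19 fragments against 8, 8 and 9. Asic2, an acid-sensing ion channel gene, ranked 45.2, 67.2 and 64.0 against 10.4, 9.17 and 25.0, at a site 120097 bp from the gene end (chr11:81452326-81452405). Mpp6, a membrane-associated guanylate kinase gene, ranked 68.9, 40.4 and 15.5 against 0.786, 7.42 and 3.53. Zmiz1, the gene of a PIAS-like coactivator, ranked 40.5, 44.0 and 49.6 against 16.0, 0.349 and 11.4, at the start of the noncoding gene Gm32497. Some hosts from the gene lists had groups that did not overlap either. Cacna1g, a T-type calcium channel gene, ranked 17.3, 16.3 and 9.19 in the vehicle and 41.9, 35.2 and 55.9 in the estradiol libraries. Gabrg3 ranked 1.57, 0.472 and 3.77 against 25.6, 15.0 and 7.01, so it was among the lowest constant regions in every vehicle library. Among the 10 highest members, Brwd1 ranked 97.6, 95.9 and 96.1 against 97.7, 98.1 and 98.4, and Map3k13 98.3, 97.6 and 96.4 against 95.1, 94.9 and 90.3. The members from Smn1 to Zmiz1 were named as extremes of their direction, so their size is a description and carries no test.

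Smn1 and Rsbn1l, the extremes of each direction, both lay at a start, and the 250 bases upstream are shown to compare them, again with CCAAT or ATTGG in capitals, at chr13:100124605-100124854 on the plus strand and chr5:20951823-20952072 on the minus strand.
Smn1: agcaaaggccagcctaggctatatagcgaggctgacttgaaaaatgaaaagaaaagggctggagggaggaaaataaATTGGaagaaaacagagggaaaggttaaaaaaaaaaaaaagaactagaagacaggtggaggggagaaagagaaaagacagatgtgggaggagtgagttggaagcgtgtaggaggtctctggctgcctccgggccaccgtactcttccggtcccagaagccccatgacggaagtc
Rsbn1l: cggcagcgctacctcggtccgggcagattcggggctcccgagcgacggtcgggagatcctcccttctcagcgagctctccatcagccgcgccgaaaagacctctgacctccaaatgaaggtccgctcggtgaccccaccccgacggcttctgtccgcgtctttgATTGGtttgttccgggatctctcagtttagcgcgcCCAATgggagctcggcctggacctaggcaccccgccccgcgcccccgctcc
Smn1 has 1 box, which begins 174 bases upstream and lies outside the covered stretch of 91 bases upstream to 30 downstream. Rsbn1l has 2, which begin 86 and 51 bases upstream and lie inside the covered stretch. A start window was overlapped by 11 of the 26 members that ranked higher and 11 of the 24 that ranked lower, beside 173 of 444 over the members.

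**Figure D5:**
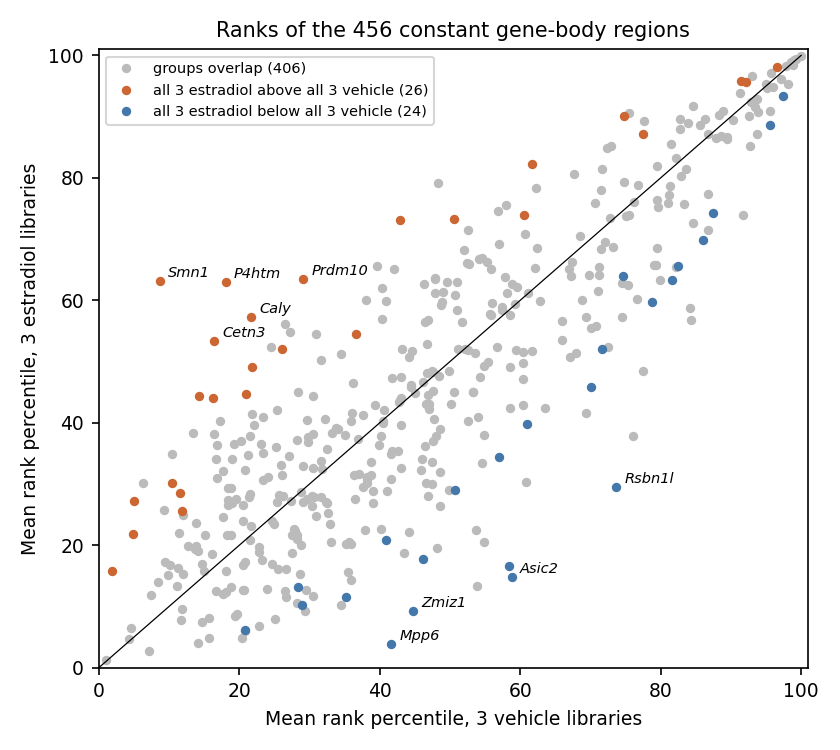
Mean percentile of summit fold over the 3 vehicle (horizontal axis) and 3 estradiol libraries (vertical axis) for each of the 456 members, with the diagonal of equal ranks. Orange points have all 3 estradiol ranks above all 3 vehicle ranks (26), blue points the reverse (24), and grey points overlap (406). Some of the most extreme of each direction are named by host gene, from Smn1 above the diagonal to Mpp6 below it.

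At the limits of the rule, the members nearest to 1 kb from a gene end were in Iba57 (1017 bp) and Tsga10 (1021 bp), with folds from 5.22 to 9.97 and from 6.41 to 8.97. Just outside it were Jund (996 bp) and Fstl3 (985 bp), with folds from 5.39 to 12.4 and from 7.20 to 13.4. Of the 492 gene-body regions with a peak in 5 of 6 lists, 361 lacked one in vehicle library 1 alone, the shortest list. The highest of the 492 was in Zp3r (chr1:130576101-130576178), with folds of 14.4 and 20.4 in vehicle libraries 2 and 3 and of 10.1, 14.5 and 11.7 in the estradiol libraries, which is above the members' medians in those libraries.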

How the data were processed

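The 6 peak lists were deposited as 1 file per library on mm10. Per the submitters' processing notes, the tools were MACS2, Bowtie2, cutadapt, SAMtools, Picard and deepTools, with no version. A control library is not named in the labels. Per the peak names in the deposited files, a q-value of 0.01 was the threshold. Each deposited peak has a whole-number score (not used), the fold enrichment at the summit, a ratio over the peak caller's background, the −log10 p-value, the −log10 q-value and the summit offset, all the authors' own. Fragments at the summit were recovered from the deposited fold and −log10 p-value as whole numbers under a Poisson tail, matched within 0.0002 for at least 99.9886% of the peaks in each list. The median summit in each list held 6 fragments.

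Peaks that overlapped or touched (1 bp) were merged, and RefSeq gene spans (GRCm38.p6) gave the classes. Start windows and their sequences came from a RefSeq table with none on 12 members' chromosomes; members at no window may lie at a start outside that table. Python 3.11.15, numpy 2.4.6, pandas 2.3.3 and scipy 1.17.1 were used. Classes were compared over libraries by two-sided exact sign-flip permutation tests, and treatments by non-overlap of ranks only. The scripts were tested on simulated data. Intervals cover counting error only.

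The members and gene lists were chosen with earlier results of these data known. Named were the 10 highest members by lowest fold, the 5 largest rank differences in each direction without overlap, hosts of several members, hosts from the gene lists, members near noncoding genes, members at the limits of the rule and the 2 lowest. Alternatives were other end distances, 50% cover, merging up to 100 bp, −log10 q of at least 3, lists of equal length, ends of all genes, −log10 q as height, each library left out, a replicate block, and replicates 1 and 2 or replicate 3 alone. Some members that the rule for names selects are not reported here.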

Additional observations from a re-analysis of the deposited data

How the results depend on the processing

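The number of members was 146 with 50% cover and 264 in lists of equal length. The share at a start window was 32.6% with an end distance of 2000 bp, 45.9% in lists of equal length and 33.9% with the ends of all genes. The log2 height difference from gene ends was -0.10 with −log10 q of at least 3 and -0.042 in lists of equal length, and neither passed the threshold (adjusted exact p = 0.0625 and 0.208). That from regions outside genes was 0.055 at 2000 bp, 0.059 with merging up to 100 bp and 0.10 with −log10 q as height, none of which passed the threshold, and it reversed to -0.014 with 50% cover and -0.022 in lists of equal length. In lists of equal length the widths differed by -26.2 and 21.8 bp, and both calls were lost (adjusted exact p = 0.0625 each). Between members at and not at a start, height differed by 0.061 and width by 64 bp with 50% cover, and by 0.028 and 38.2 bp in lists of equal length, also no longer past the threshold. At least 2 NF-Y boxes were in 58.2% of windows with 50% cover and 52.5% in lists of equal length. Higher-ranked members numbered 17 at 2000 bp, 8 with 50% cover and 16 in lists of equal length, beside 4.23%, 3.74% and 3.95% of all constant regions. Lower-ranked members numbered 8 and 13 in the latter settings, beside 3.32% and 3.68%. The causes were not tested.

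Same-numbered libraries of the groups had rank deviations that correlated by 0.166, 0.0304 and 0.300, and different-numbered ones by -0.234 to 0.0575. On the log2 fold the values were 0.286, 0.0467 and 0.425, and -0.355 to 0.132. Replicates 1 and 3 were thus above every different-numbered pair and replicate 2 was not, so a shared replicate effect cannot be set aside. The main ranks were not paired by number. With the replicate block, which compares libraries of the same number, 60 members ranked higher and 60 lower, beside 12.4% and 12.1% of all constant regions. In replicates 1 and 2 alone 67 ranked higher and 105 lower, beside 15.5% and 16.5%. In replicate 3 alone, with 1 library per group, the numbers were 240 and 213, beside 49.6% and 50.1%.

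With each library left out once there were 456 to 817 members, a start share of 30.9% to 39.2%, 42 to 72 higher ranks (beside 8.06% to 10.0% of all constant regions) and 35 to 77 lower ranks (beside 7.52% to 10.1%), and 37.1% to 42.9% of windows with at least 2 NF-Y boxes. The log2 height differences ran from -0.16 to -0.10 against gene ends, from 0.066 to 0.079 against regions outside genes and from 0.16 to 0.28 for starts. The widths ran from -28.9 to -23.9, from 12.8 to 18.4 and from 38.4 to 45.6 bp. With 5 libraries the smallest exact p is 0.0625, so no test could pass there. Of the 10 highest members, 6 were still members at 2000 bp and with the ends of all genes, 9 with 50% cover, and all 10 in the other settings. Of the rank differences of single named members over the settings, 144 had groups that did not overlap and 1 had groups that did (Caly in lists of equal length), with 0 reversed. These members were named because their groups did not overlap, and other end distances leave the ranks as they were. Leaving out libraries mostly compares subsets of groups already apart, and settings in which a member dropped out were not counted. The counts were thus largely set by the choice of members and are no check on them.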

Other observations

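Hosts from imprinted clusters were looked at after Kcnq1 and Usp29 had been seen among the extremes, so the list was chosen after its values were known and gets no test. Of 28 imprinted or neighbouring genes longer than 2 kb, 6 held a member (Kcnq1, Inpp5f, Usp29, Peg3, Peg10 and Dhcr7), beside 2.28% of all genes. Peg3, which encodes a zinc finger protein expressed from the paternal allele, had folds of 5.27, 6.59 and 7.45 in the vehicle and 7.29, 6.87 and 5.99 in the estradiol libraries. The Peg10 member had 5.01, 8.88 and 6.20 against 9.32, 5.91 and 7.20. Both groups of values overlapped in each gene, and only the Kcnq1 member was among the 10 highest.

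The member in Clcn4, a chloride and proton exchanger gene (chr7:7298740-7298904), overlapped a start of the gene and the hairpin of Mir5620. Its folds were 5.04, 9.99 and 11.1 in the vehicle and 8.05, 9.93 and 7.81 in the estradiol libraries.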
